A study of Mus musculus with 4 samples.

Results

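The genes of oxidative phosphorylation were followed in RNA-seq of the mouse cochlea, with the genes of the mitochondrial genome set against those of the nuclear genome. Members were chosen by symbol: the mitochondrially encoded protein genes (mt-Nd, mt-Co, mt-Cytb and mt-Atp) and the nuclear protein-coding genes whose symbols begin with Nduf (without the Ndufaf assembly factors), Uqcr, Cox4i to Cox8 or Atp5, with Sdha, Sdhb, Sdhc and Sdhd. This gave 98 of the 37239 genes in the files, 13 mitochondrially encoded and 85 nuclear. The symbol rule uses no measured value, but it was set with earlier results of these data known. Of the 98 members, 91 reached 1 CPM (counts scaled to the total of a library, as deposited) in at least 2 libraries and were tested for a difference between genotypes, 10 mitochondrially encoded and 81 nuclear.

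The RNA came from whole cochleae dissected at postnatal day 8, and wild-type mice (Ikzf2+/+) were compared with littermates homozygous for the cello allele (Ikzf2cello/cello), with 2 libraries for each genotype. Ikzf2 encodes helios, a zinc finger transcription factor of outer hair cells, and the allele is carried by every cell of the mutant animal. Libraries are called biological duplicates, but whether each holds 1 animal or several is not given, so p-values measure only the spread between these 4 libraries. Ikzf2 itself stood at 22.9 and 18.5 CPM in wild-type libraries against 17.7 and 16.9 CPM in cello, and since cello is not a deletion this level does not check the genotypes.

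The libraries held 42152616 to 49719984 counted alignments, of which 70.0% to 72.8% lay in genes, and 1 read was worth 0.0201 to 0.0237 CPM. Markers of hair cells and of nonsensory cochlear cells were present, with all 8 and all 10 genes listed for them tested, and these are the defining transcripts of the labelled tissue. Cello replicate 1 stood apart for the nuclear members. For members and pathway lists, differences and medians that its absence moved by over 1.5 times are given with and without it. Differences of single marker genes and medians of other gene sets are given with all 4 libraries only.

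Oxidative phosphorylation is carried out in the inner mitochondrial membrane. Complexes I and II pass electrons from NADH and succinate to ubiquinone, complex III passes them on to cytochrome c, and complex IV passes them to oxygen, while complexes I, III and IV pump the protons that drive the ATP synthase, complex V. Complex II is wholly nuclear encoded, and the other complexes combine nuclear subunits with subunits made on mitochondrial ribosomes, so that 2 genomes supply the parts. In the cochlea this machinery is known above all for the stria vascularis, whose ion pumping has a high demand for ATP, and for the hair cells.

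The mitochondrially encoded members fell into 2 sets that lay far apart in level. Of the 13, 7 stood at 1187 to 4113 CPM per kb of transcript, the scale on which genes of different length can be compared, and 6 stood below 5 CPM per kb. In the high set mt-Co1, the catalytic subunit of complex IV, had a mean over the 4 libraries of 4113 CPM per kb. It was followed by mt-Cytb, the cytochrome b of complex III, at 3658 CPM per kb and by the complex I subunits mt-Nd1 at 3429, mt-Nd2 at 1789.8, mt-Nd5 at 1594, mt-Nd6 at 1382 and mt-Nd4 at 1187 CPM per kb. In the low set were the complex IV subunits mt-Co2 (4.13 CPM per kb) and mt-Co3 (3.36), the ATP synthase subunits mt-Atp6 (3.66) and mt-Atp8 (2.54), and the complex I subunits mt-Nd4l (1.34) and mt-Nd3 (1.27). The low set is one continuous run of neighbours in the mitochondrial genome, from mt-Co2 (chrM:7013-7696) to mt-Nd4l (chrM:9877-10173).

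Most of that run has a near-identical annotated copy on chromosome 1. GENCODE M21 places 7 unprocessed pseudogenes side by side on the minus strand at chr1:24611535-24616197 of GRCm38, a block of 4663 bases, and 0 of the 7 have a row in the files. Gm28661 matched mt-Co2 at 681 of 681 bases compared, Gm10925 matched mt-Atp6 at 678 of 678, Gm28437 matched mt-Co3 at 783 of 783, and Gm10222 matched mt-Nd4l at 294 of 294. Gm28438 matched mt-Nd3 at 344 of 345 bases, with the single substitution T3C (the mitochondrial base first, positions counted from 1 at the start of the transcript, then the base of the copy). At the ends of the block, Gm28439 matched 876 of 876 bases of mt-Nd4, and Gm29216 matched 486 of 492 bases of mt-Co1. The first 60 bases of mt-Co2 and mt-Nd3 are shown beside their copies, 5′ to 3′ from the GENCODE M21 transcripts, to show what an aligner had to tell apart, with capitals marking the only base that differs.
mt-Co2, chrM:7013-7072, plus strand: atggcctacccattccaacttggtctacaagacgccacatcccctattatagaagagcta
Gm28661, chr1:24615506-24615565, minus strand: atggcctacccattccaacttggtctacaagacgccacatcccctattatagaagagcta
mt-Nd3, chrM:9459-9518, plus strand: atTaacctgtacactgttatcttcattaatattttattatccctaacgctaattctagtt
Gm28438, chr1:24613060-24613119, minus strand: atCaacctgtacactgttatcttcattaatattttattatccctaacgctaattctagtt

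The share of a transcript's 50-base windows that also occur in a gene elsewhere separated the sets with 1 exception. It was 100% in mt-Co2, 99.9% in mt-Co3, 99.5% in mt-Atp6, 98.8% in mt-Nd4l and 98.0% in mt-Nd3. In the high set it was 62.2% in mt-Nd4, 51.1% in mt-Co1, 8.19% in mt-Nd2, 7.61% in mt-Nd5 and 0% in mt-Nd1, mt-Nd6 and mt-Cytb. The exception was mt-Atp8, at 0%, which lies between mt-Co2 and mt-Atp6 and has no annotated copy of its own. The unannotated bases between Gm28661 and Gm10925 were not searched here. In the files 13.03% to 14.6% of alignments are entered as not unique and assigned to no gene. The part of shared sequence in the low values of these 6 genes was not tested, and their CPM are uncertain as measures of their transcripts. With 62.2% and 51.1% of windows shared, the CPM and ranks of mt-Nd4 and mt-Co1 are uncertain too. Reads where mt-Atp8 overlaps mt-Atp6 and where mt-Nd4l overlaps mt-Nd4, each on the same strand, cannot be assigned with certainty either. The same holds where mt-Nd6, on the minus strand, overlaps mt-Nd5, since the strand setting is not given.

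**Figure D1:**
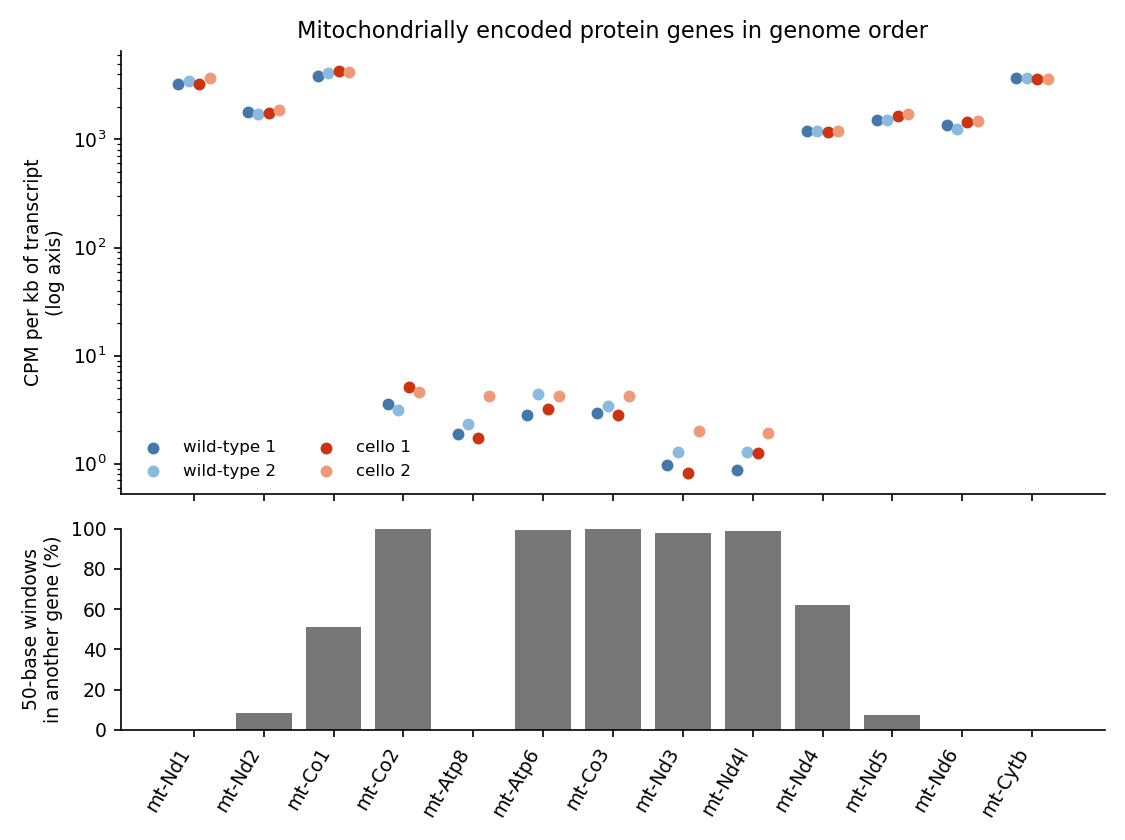
Upper panel, CPM per kb of transcript (log axis) of the 13 mitochondrially encoded protein genes in genome order, with 1 point per library; lower panel, the percentage of each transcript's 50-base windows that also occur in a gene elsewhere. The 6 genes from mt-Co2 to mt-Nd4l have means below 5 CPM per kb, and 5 of them share 98.0% to 100% of their windows, whereas mt-Atp8 shares 0%.

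Nuclear members were expressed well above the typical gene per unit of length. Their median was 59.5 CPM per kb over all 85 and 61.7 CPM per kb over the 81 tested, against 7.41 CPM per kb over the 13807 tested genes with a principal transcript. Their transcripts were also short, with a median of 838 bases among those tested against 3110 bases. By complex, the median was 91.4 CPM per kb for complex V (17 genes), 83.5 for complex II (4 genes), 54.8 for complex III (8 genes), 52.5 for complex I (36 genes) and 41.4 for complex IV (20 genes). These orders are a description, since genes within a complex spread far more widely than the complexes differ.

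The highest nuclear transcript was Atp5b, the catalytic beta subunit of the ATP synthase, at 490.5 CPM per kb. Atp5g3, which encodes the c subunit of the membrane ring, followed at 344 CPM per kb, and Atp5a1, the alpha subunit, at 318 CPM per kb. Of the other genes of the c subunit, Atp5g2 was listed at 2.82 CPM per kb, with 87.4% of its windows shared with other genes. The highest members elsewhere were Cox8a (315 CPM per kb) in complex IV, Uqcrh, the hinge protein (206), in complex III, Ndufb9, an accessory subunit (140.4), in complex I and Sdhb, the iron-sulfur subunit (86.5), in complex II. Per kb, each of the 7 abundant mitochondrially encoded genes stood above Atp5b.

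Processed pseudogenes are common among nuclear members too. The 11 nuclear members that shared at least 20% of their windows with another locus had a median of 11.7 CPM per kb, and the highest of them reached 84.3 CPM per kb. The median was 62.4 CPM per kb in the 49 members that shared no window and 65.1 CPM per kb in the 25 that shared some but under 20%. Over the 85 nuclear members the rank correlation of level with shared sequence was -0.23 (Spearman), given as a description of genes from the same 4 libraries. Among the 11 were Atp5g2, Atp5l (68.5% of windows), Cox7c (53.0%), Atp5h (47.9%), Ndufa12 (26.2%) and Cox5b (25.9%), and their CPM are uncertain. Uqcrc1, a core subunit of complex III, was listed at 0 in all 4 libraries although complex III is needed in every respiring cell and none of its windows is shared, so this 0 is not read as absence.

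**Figure D2:**
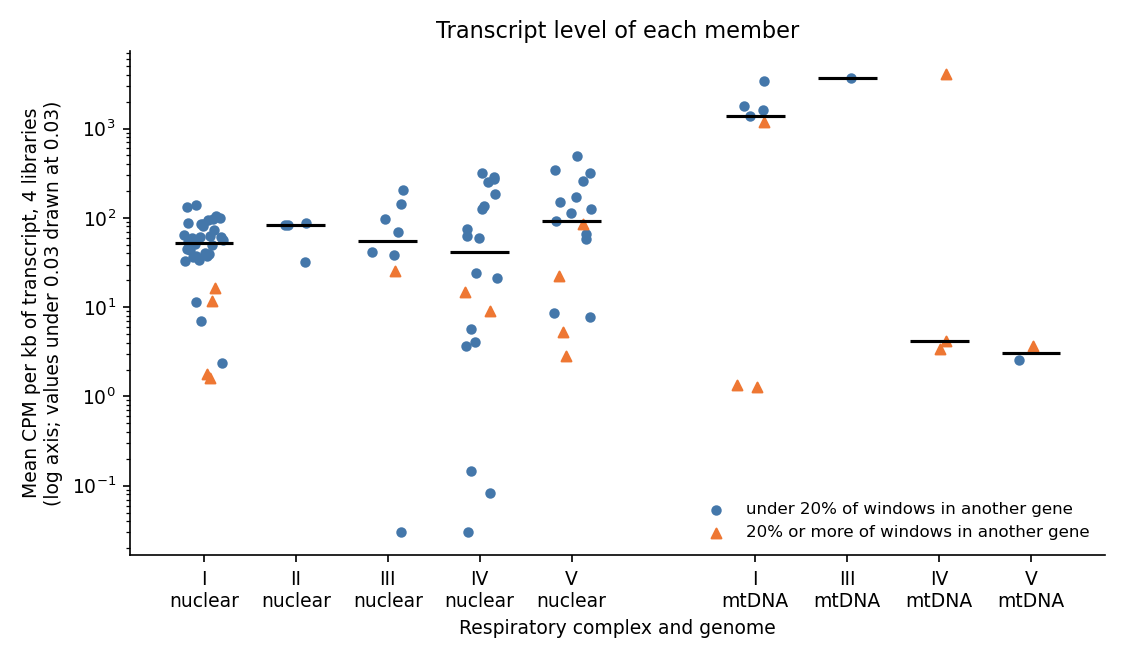
Mean CPM per kb of transcript over 4 libraries (log axis) for each member by complex and genome, with bars at the medians; triangles mark members with at least 20% of 50-base windows in a gene elsewhere. The nuclear medians lie between 41.4 and 91.4 CPM per kb, and the mitochondrially encoded genes split into 7 points from 1187 to 4113 and 6 points below 5.

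Between genotypes, no member differed past the threshold. With limma, 0 of 14721 genes reached the adjusted threshold of 0.05 (0%), and the smallest adjusted p among members was 0.429. At an unadjusted p under 0.05 limma listed 4 members, Atp5d, Ndufa8 and Ndufb10 with lower values in cello and mt-Co2 with a higher one, against 6.47% of all genes tested on the lower side, 4.42% on the higher side and 10.9% in both directions. Of the count tests on the recovered reads, edgeR called 0 genes (0%) and DESeq2 called 195 of the 13008 genes to which it gave an adjusted p (1.5%), of which 0 were members, and at an unadjusted p under 0.05 they listed 3 and 4 of the 91 members, against 9.94% and 9.29% of all genes. The number of members listed by limma moved with each library left out, as did the number of all genes listed. Leaving out wild-type replicate 2, limma called 90 genes, of which 0 were members. What follows therefore gives levels and directions, none of which passed. In whole cochleae, fewer cells of a type and less RNA per cell cannot be told apart.

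The nuclear members were slightly lower in cello on balance, and this came mostly from 1 library. Their median log2 difference, cello minus wild-type on the log2(CPM + 0.5) scale used for all differences, was -0.08, against -0.03 over all genes tested and -0.05 over the 5338 genes at a similar level. Of the 81 tested, 62 lay below 0 and 19 above, against 56.6% of all genes below 0. With TMM rescaling the split was 53 below 0 and 28 above, with a median of -0.04. The groups did not overlap for 28 members with lower and 2 members with higher values in cello, against 28.7% and 16.9% of all genes tested. Differences ranged from -0.31 (Cox7a1) to 0.17 (Sdhc).

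Cello replicate 1 was the lowest of the 4 libraries for 62 of the 81 nuclear members, against 35.9% of all genes tested. The median deviation of the nuclear members from their own mean was -0.13 in that library and 0.05 in cello replicate 2, with 0.05 and 0.03 in the wild-type libraries. Over all genes tested the medians were 0.02 and 0.02 in wild-type and -0.03 and -0.00 in cello. Without cello replicate 1 the nuclear median moved to 0.02, with 36 of 81 below 0, and without cello replicate 2 it was -0.17, with 68 of 81 below 0. The direction of the nuclear genes thus depended on which cello library was used.

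Short transcripts in general were low in the same library. Among genes that are not members, the median deviation in cello replicate 1 was -0.12 for transcripts under 1 kb (644 genes), -0.08 from 1 to 2 kb (2699 genes), -0.03 from 2 to 4 kb (5692 genes) and 0.00 at 4 kb or more (4681 genes). The median log2 difference was -0.08 in the shortest class and 0.01 in the longest. Cello replicate 1 was the lowest library for 55.4% of the genes under 1 kb. Members under 1 kb (49 genes) stood at -0.12 in cello replicate 1 and longer members (32 genes) at -0.13. Markers of bone summed to 2584 CPM in cello replicate 1, against 1083 and 1108 CPM in the wild-type libraries and 610 CPM in cello replicate 2 (10 of 10 genes tested), and markers of marrow neutrophils to 88.6 CPM against 20.2, 41.7 and 8.18 CPM (7 of 8 tested). None of these markers was at 0 in every library. The part of length or of cell makeup in the nuclear values was not tested.

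**Figure D3:**
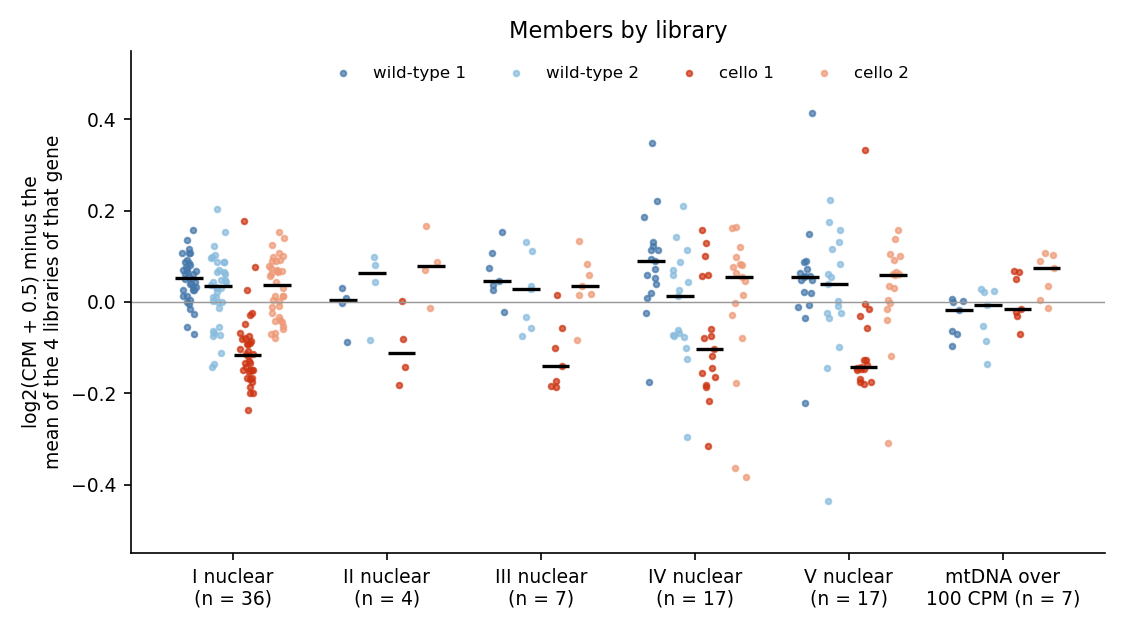
Deviation of each member from its own mean over 4 libraries, on the log2(CPM + 0.5) scale, by complex and library, with bars at the medians. In each of the 5 nuclear complexes cello replicate 1 has the lowest median, whereas the 7 mitochondrially encoded genes above 100 CPM have medians of -0.02, -0.01, -0.01 and 0.07.

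Complex I was the largest group, and 28 of its 36 nuclear members lay below 0, with a median log2 difference of -0.09. Without cello replicate 1 the median was 0.02, with 16 of 36 below 0. The groups did not overlap for 14 of the 36, all with lower values in cello, against 28.7% of all genes tested on that side. Ndufa8 (ENSMUSG00000026895, chromosome 2, 36036326 to 36049406 of GRCm38), an accessory subunit, stood at 58.0 and 58.7 CPM in wild-type libraries against 44.8 and 50.9 CPM in cello. Both cello libraries lay below both wild-type libraries. Its difference was -0.29 (SE 0.09, limma unadjusted p = 0.0251, adjusted p = 0.437). Ndufb10, an accessory subunit of the proton-pumping arm, stood at 72.9 and 73.5 CPM in wild-type libraries against 63.2 and 64.7 CPM in cello, a difference of -0.19 (SE 0.07, limma adjusted p = 0.452). Ndufs8, a core subunit that carries iron-sulfur clusters, stood at 66.1 and 66.9 CPM against 58.2 and 59.6 CPM, a difference of -0.17 (SE 0.07, limma adjusted p = 0.468). In these 2 genes the libraries of each genotype lay close together and the groups were apart. Ndufb9 showed the more common pattern, with 103 and 102 CPM in wild-type, then 85.7 CPM in cello replicate 1 but 105 CPM in cello replicate 2, so that only 1 cello library was low, and its difference of -0.11 became 0.03 without that library.

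Complex II, which has no mitochondrially encoded subunit, did not move as 1 unit, and its median of -0.07 was 0.04 without cello replicate 1. Sdha, the flavoprotein that oxidises succinate, stood at 239.5 and 257 CPM in wild-type libraries against 227 and 238 CPM in cello, and both cello libraries were lower, a difference of -0.10 that was -0.06 without cello replicate 1. Sdhb stood at 99.2 and 102 CPM against 89.3 and 105 CPM. Sdhd, a membrane anchor, stood at 106 and 109 CPM against 91.1 and 108 CPM. In both Sdhb and Sdhd the groups overlapped and only cello replicate 1 was low, and without it their differences of -0.05 and -0.11 became 0.06 and 0.01. Sdhc, the other membrane anchor (ENSMUSG00000058076, chromosome 1, 171127165 to 171150603), went the other way, with 95.8 and 96.0 CPM in wild-type libraries against 102 and 114 CPM in cello. Both cello libraries were above both wild-type libraries, a difference of 0.17 (SE 0.09, limma unadjusted p = 0.106, adjusted p = 0.524).

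Sdhc shares its chromosome with Ikzf2, as do other members, and alleles linked to cello could differ between the groups there, which was not tested. From Ikzf2 the distances were 6.45 Mb for Ndufs1, 11.02 Mb for Ndufb3, 22.9 Mb for Ndufa10, 32.9 Mb for Cox5b and 101.5 Mb for Sdhc. The groups overlapped for the nearest members, Ndufs1 (98.5 and 106.5 CPM in wild-type libraries, 95.2 and 101 CPM in cello) and Ndufb3 (40.2 and 37.2 against 36.9 and 40.6 CPM). They did not overlap for Ndufa10, at 73.5 and 84.0 CPM in wild-type libraries against 65.6 and 69.4 CPM in cello, a difference of -0.22.

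In complex III, 6 of the 7 nuclear members tested lay below 0, with a median of -0.08, and without cello replicate 1 there were 4 of 7, with a median of -0.0038. Uqcrfs1, the Rieske iron-sulfur protein that hands electrons towards cytochrome c, stood at 95.6 and 102 CPM in wild-type libraries against 81.9 and 94.1 CPM in cello, a difference of -0.17 (SE 0.10) that was -0.07 without cello replicate 1. Uqcr11, a small accessory subunit, stood at 19.01 and 17.4 CPM against 15.9 and 16.1 CPM, a difference of -0.18 (SE 0.11). The groups did not overlap for either gene, and limma gave adjusted p of 0.555 and 0.552. Uqcrc2, a core subunit, stood at 187 and 199 CPM in wild-type libraries against 163 and 188 CPM in cello, so that cello replicate 2 lay within the wild-type range. Uqcrh stood at 121 and 108 CPM against 98.5 and 123 CPM, which spans the wild-type libraries on both sides.

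In complex IV, 13 of the 17 nuclear members tested lay below 0, with a median of -0.05, and without cello replicate 1 there were 8 of 17, with a median of 0.02. Cox6a1, the widely expressed form of subunit VIa, stood at 149 and 160.1 CPM in wild-type libraries against 135 and 137 CPM in cello, a difference of -0.18 (SE 0.08, limma unadjusted p = 0.0673, adjusted p = 0.482). Cox4i1, the widely expressed form of subunit IV, stood at 224 and 213 CPM against 186 and 206 CPM, a difference of -0.16 (SE 0.09). Cox8a stood at 182 and 179.9 CPM against 156 and 175 CPM, a difference of -0.13 (SE 0.09). In these 3 genes every cello library lay below every wild-type library, and without cello replicate 1 the differences of Cox4i1 and Cox8a were -0.08 and -0.05. Cox6b1, at 119 and 109 CPM against 108 and 123 CPM, and Cox7a2, at 89.4 and 89.8 CPM against 78.6 and 95.8 CPM, overlapped between genotypes.

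Tissue-specific forms of complex IV subunits were minor in this cochlea. Per kb of transcript, Cox7a1, the form of heart, skeletal muscle and brown fat, reached 20.5% and 18.5% of the level of Cox7a2 in wild-type libraries against 20.7% and 12.4% in cello. Cox8b, another muscle form, reached 8.22% and 5.86% of Cox8a in wild-type libraries against 8.32% and 4.98% in cello. Cox6b2, known from testis, reached 2.45% to 3.39% of Cox6b1 over the 4 libraries, and Cox4i2, known from lung, reached 1.41% to 1.58% of Cox4i1. Ndufa4l2, a paralog of Ndufa4 known to respond to low oxygen, reached 1.11% to 1.598% of Ndufa4. Cox8c, a testis form, was listed at 0 in all libraries. The widely expressed form was the higher of the 2 in every library for each of these subunits.

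Cox6a2, the form of heart and skeletal muscle, was detected with 16 reads in wild-type replicate 2, 1 read in cello replicate 2 and 0 reads in the other 2 libraries, where a count of 0 allows up to 0.0603 and 0.0707 CPM by counting error alone. The same wild-type library held the most muscle markers, with a sum of 37.2 CPM over 12 genes against 8.41 CPM in wild-type replicate 1 and 5.65 and 6.64 CPM in cello (4 of 12 tested, none at 0 in every library). Cox7a1 stood at 10.9 and 9.89 CPM in wild-type libraries against 9.68 and 7.10 CPM in cello, a difference of -0.31 (SE 0.18) that was -0.52 without cello replicate 1, and Cox8b at 9.78 and 6.90 CPM against 8.50 and 5.69 CPM. These 2 genes did not peak in wild-type replicate 2, and both were lowest in cello replicate 2. The brown fat genes Ucp1 and Elovl3 were at or near 0, with at most 0.261 and 0.0632 CPM in any library.

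In complex V, 12 of the 17 members lay below 0, with a median of -0.06, and without cello replicate 1 there were 7 of 17, with a median of 0.02. Atp5d (ENSMUSG00000003072, chromosome 10, 80138632 to 80145818 of GRCm38), the delta subunit of the rotating central stalk, stood at 184 and 205 CPM in wild-type libraries against 155 and 161 CPM in cello. Both cello libraries lay below both wild-type libraries, and the difference was -0.29 (SE 0.09, limma unadjusted p = 0.0203, adjusted p = 0.429), the smallest p among members. Atp5e, the epsilon subunit of the same stalk, stood at 121 and 109.2 CPM against 98.4 and 108.9 CPM, a difference of -0.15 (SE 0.10). Atp5g3 stood at 252 and 272 CPM against 226 and 246 CPM, a difference of -0.16 (SE 0.09). Without cello replicate 1 these were -0.08 and -0.09. The groups overlapped for neither gene, though cello replicate 2 lay within 7 CPM of the nearer wild-type library in both. Atp5b, the highest nuclear member, stood at 916 and 1045 CPM in wild-type libraries against 858 and 940.4 CPM in cello, with overlapping groups.

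The median deviation of the mitochondrially encoded members was -0.02 in cello replicate 1 and lowest in wild-type replicate 1, at -0.07, and cello replicate 1 was the lowest for 4 of the 10 tested, against 35.9% of all genes. Of the 10, 8 lay above 0 and 2 below, with a median log2 difference of 0.07. Of these, the 7 above 100 CPM had 5 above 0 and 2 below, with a median of 0.05 (0.10 without cello replicate 1). The other 3, mt-Co2, mt-Co3 and mt-Atp6, all lay above 0 and belong to the low set, whose values are not read as transcript levels. With TMM rescaling all 10 lay above 0, since mt-Nd4 and mt-Cytb turned from below to above 0. The median of all 10 was 0.14 without cello replicate 1 and -0.01 without cello replicate 2, so its direction also rested on 1 library. The groups did not overlap for 4 members with higher values in cello (mt-Nd5, mt-Nd6, mt-Co1 and mt-Co2) and for 1 with lower values (mt-Cytb), against 16.9% and 28.7% of all genes tested.

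Among the abundant genes, mt-Co1 stood at 5940.5 and 6325 CPM in wild-type libraries against 6654 and 6502 CPM in cello, a difference of 0.10 (SE 0.30). mt-Nd5 stood at 2765 and 2734 CPM against 3006 and 3126 CPM, a difference of 0.16 (SE 0.20). mt-Nd6, the only member on the minus strand of the mitochondrial genome, stood at 707 and 651 CPM against 749 and 762 CPM, a difference of 0.15 (SE 0.11). In each of these the cello libraries were the higher ones, by less than the standard error for mt-Co1 and mt-Nd5. The standard errors of the most abundant genes come largely from the variance trend that limma fits across genes and exceed the spread of their own libraries. mt-Cytb, for example, stood at 4205 and 4248 CPM in wild-type libraries against 4143 and 4145 CPM in cello, with an SE of 0.24.

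The remaining abundant genes overlapped between genotypes. mt-Nd1 stood at 3136 and 3344 CPM in wild-type libraries against 3123 and 3522 CPM in cello. mt-Nd2 stood at 1857 and 1791 CPM against 1828 and 1956 CPM, and mt-Nd4 at 1637 and 1663 CPM against 1602 and 1642 CPM. None of these 3 genes had both cello libraries on the same side of wild-type.

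Of the low set, mt-Co2 had the largest difference of any member, at 2.43 and 2.16 CPM in wild-type libraries against 3.53 and 3.18 CPM in cello, or 0.46 (SE 0.18, limma unadjusted p = 0.0496, adjusted p = 0.459). Its neighbours overlapped, with mt-Co3 at 2.33 and 2.70 CPM against 2.21 and 3.29 CPM and mt-Atp6 at 1.91 and 3.01 CPM against 2.19 and 2.87 CPM. The other 3 were too low to be tested. mt-Nd3 was counted with 17 and 19 reads in wild-type libraries against 12 and 33 in cello, mt-Nd4l with 13 and 16 against 16 and 27, and mt-Atp8 with 19 and 20 against 15 and 41. In these 3 genes cello replicate 2 held the most reads. For mt-Co2 to mt-Nd4l such values are what remained of each gene's reads after assignment, as described above, and they are not read as its transcript level.

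Set against each other, the genomes gave a ratio of summed CPM that was higher in both cello libraries. Mitochondrially encoded members summed to 20256 and 20767 CPM in wild-type libraries against 21114 and 21665 CPM in cello. Nuclear members summed to 7297 and 7553 CPM against 6526 and 7286 CPM. The ratio was therefore 2.78 and 2.75 in wild-type libraries against 3.24 and 2.97 in cello. On the log2 scale the means were 1.47 ± 0.0097 and 1.63 ± 0.086 (SD, n = 2), a difference of 0.17, larger than the spread in either group. With 2 libraries a side the smallest p that exact permutation can give is 0.333, so no p is given. The difference was 0.11 without cello replicate 1 and 0.23 without cello replicate 2, and as a ratio within a library it does not depend on scaling. The summed markers of neurons and of Schwann cells were also higher in both cello libraries. Neuron markers summed to 205 and 607 CPM in wild-type libraries and to 751 and 901 CPM in cello ones. Schwann cell markers summed to 1007 and 2604 against 3869 and 4729 CPM (10 of 10 tested in each list, none at 0 in every library). The groups did not overlap for 5 of 10 neuron genes and 10 of 10 Schwann cell genes, all higher in cello. This compares with 16.9% of all genes tested. Of the neuron genes 2 lay below 0, Syt1 (-0.43) and Gap43 (-0.0036), and without cello replicate 1 all 10 lay above 0. The part of neurons and Schwann cells in the ratio was not tested.

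The sums behind the ratio differed between the cello libraries. In cello replicate 1 the nuclear sum was the lowest of the 4 libraries, and in cello replicate 2 the nuclear sum lay close to wild-type while the mitochondrially encoded sum was the highest. As shares of reads in genes, mitochondrially encoded members took 2.85% and 2.85% in wild-type libraries against 2.98% and 3.10% in cello, and nuclear members 1.03% and 1.04% against 0.920% and 1.04%. mt-Co1 made up 29.3% to 31.5% of the mitochondrially encoded sum and Atp5a1 with Atp5b 23.2% to 25.6% of the nuclear one. Without mt-Co1 the ratio was 1.96 and 1.91 in wild-type libraries against 2.22 and 2.08 in cello, and without Atp5a1 and Atp5b it was 3.62 and 3.69 against 4.27 and 3.88, so neither set of genes alone carried the order.

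**Figure D4:**
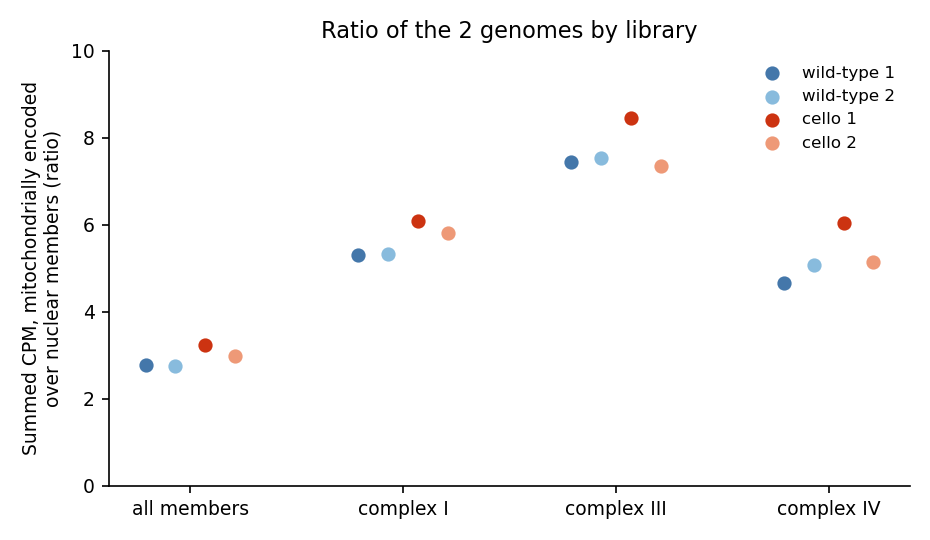
Ratio of summed CPM, mitochondrially encoded over nuclear members, in each of the 4 libraries, for all members and for complexes I, III and IV. Over all members both cello libraries (3.24 and 2.97) lie above both wild-type libraries (2.78 and 2.75), whereas in complex III cello replicate 2 (7.35) is the lowest.

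By complex, the ratio was 5.31 and 5.33 in wild-type libraries against 6.08 and 5.82 in cello for complex I, with no overlap. It was 4.67 and 5.06 against 6.03 and 5.14 for complex IV, where cello replicate 2 lay just above wild-type. For complex III it was 7.43 and 7.54 against 8.47 and 7.35, with overlap. Complex V is not given a ratio, since mt-Atp6 and mt-Atp8 are in the low set. In complex IV mt-Co2 and mt-Co3 are in the low set too, so its ratio is nearly that of mt-Co1 alone. In wild-type replicate 1, mt-Co1 gave 5940.5 of the 5945 CPM summed. The complex III ratio rests on 1 mitochondrially encoded gene, mt-Cytb, with Uqcrc1 entered at 0 in the nuclear sum. The order was also seen against other nuclear genes of the mitochondrion: over the 78 genes of the mitochondrial ribosome the mitochondrially encoded sum was 12.8 and 13.5 times as high in wild-type libraries against 15.3 and 14.2 times in cello. Over the 86 genes of the cytosolic ribosome it was 3.90 and 4.24 times in wild-type libraries against 5.61 and 4.15 times in cello, where cello replicate 2 lay between the wild-type libraries. The mitochondrial ribosomal RNAs, another product of the same genome, summed to 0.102 and 0.114 of the nuclear members in wild-type libraries, then 0.128 and 0.113 in cello, with overlap.

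**Figure D5:**
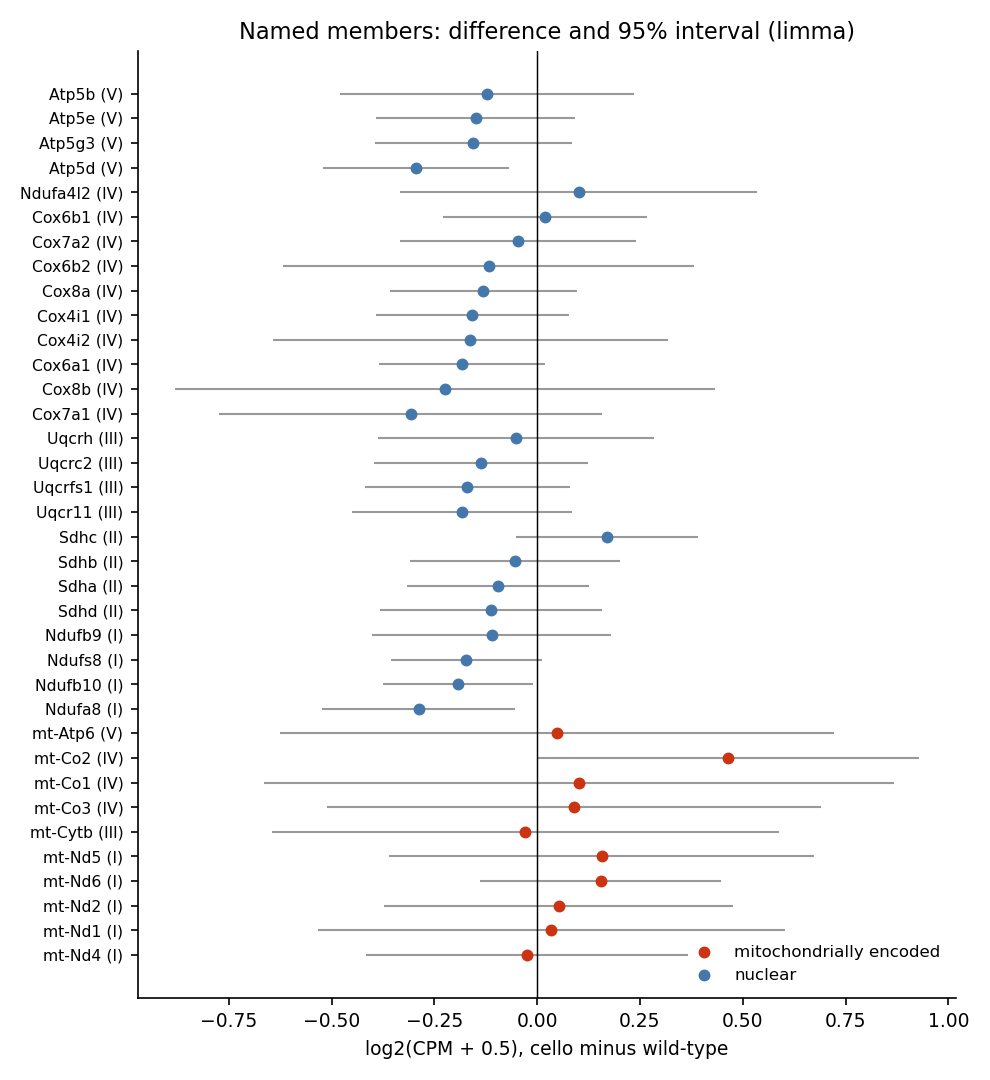
Log2 difference, cello minus wild-type on the log2(CPM + 0.5) scale, with its 95% interval from limma for each named member tested, grouped by complex in brackets. The intervals of Atp5d, Ndufa8 and Ndufb10 lie below 0 and that of mt-Co2 above 0 before adjustment, and none of these passed after adjustment.

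Genes that build, supply or regulate the respiratory chain were counted in the same way, and 0 of them passed in limma in any list. The share of all genes tested below 0 was 56.6%. Of 44 tested assembly factors, 29 lay below 0, with a median of -0.08 (24 and -0.02 without cello replicate 1), among them Tmem70, needed for the ATP synthase (28.6 and 28.5 CPM in wild-type libraries, 24.7 and 24.2 CPM in cello), and Timmdc1, a complex I assembly factor (21.5 and 22.5 against 18.9 and 18.8 CPM). Of 6 further genes of the chain outside the symbol rule, 2 lay below 0 and 4 above, with a median of 0.03 (0.05 without cello replicate 1). The 2 below were Cyc1, the cytochrome c1 of complex III (114 and 120.2 against 99.1 and 115 CPM), and Higd2a, a supercomplex factor (42.8 and 42.7 against 36.3 and 40.1 CPM). Of 76 proteins of the mitochondrial ribosome, 61 lay below 0, with a median of -0.09 and a median deviation of -0.13 in cello replicate 1, without which 44 lay below 0 and the median was -0.02. Of 79 proteins of the cytosolic ribosome, 60 lay below 0, with a median of -0.13 and a median deviation of -0.25 in cello replicate 1, without which 30 lay below 0 and the median was 0.05.

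The fuel pathways upstream were counted likewise, and no test compared the lists. Of 18 genes of the citric acid cycle, 13 lay below 0, with a median of -0.12 (10 and -0.07 without cello replicate 1), including Fh1, fumarate hydratase (-0.22, and -0.12 without it), and Idh2, the NADP-dependent isocitrate dehydrogenase of mitochondria (-0.25, and -0.08 without it). Of 17 glycolytic genes, 15 lay below 0, with a median of -0.17, and 14 did without cello replicate 1, again with a median of -0.17. That library was the lowest for 7 of the 17, and the groups did not overlap for 10 with lower values in cello, against 28.7% of all genes tested. Pfkl, the liver form of phosphofructokinase, stood at 156 and 166 CPM in wild-type libraries against 124 and 120.2 CPM in cello, a difference of -0.40 (SE 0.08, limma unadjusted p = 0.00364, adjusted p = 0.419). Both cello libraries were low for Pfkl, including the one in which the nuclear members stood near wild-type. Of 19 carriers and import factors, 12 lay below 0, with a median of -0.03.

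Genes that express the mitochondrial genome gave 24 of 33 below 0, with a median of -0.04 (19 and -0.02 without cello replicate 1). Pnpt1, a polynucleotide phosphorylase that handles RNA in mitochondria, was among those above, at 24.8 and 24.3 CPM in wild-type libraries against 29.7 and 30.6 CPM in cello, a difference of 0.29 (SE 0.09, limma unadjusted p = 0.0175, adjusted p = 0.429). Both cello libraries lay above both wild-type libraries. Of the mitochondrial ribosomal RNAs, mt-Rnr2 stood at 489 and 576 CPM against 566 and 579 CPM and mt-Rnr1 at 251 and 282 CPM against 267 and 245 CPM, with overlap in both.

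Of 17 nuclear regulators, 11 lay below 0, with a median of -0.02 (again 11, and -0.04, without cello replicate 1). At an unadjusted p under 0.05 limma listed 3 with lower values in cello, Esrrb, Esrra and Tfeb, and 1 with a higher value, Esrrg. Of all genes tested, limma listed 6.47% on the lower side and 4.42% on the higher side. Esrra, Esrrb and Esrrg are orphan nuclear receptors, of which Esrra is a known regulator of respiratory genes. Esrrb stood at 226 and 237 CPM in wild-type libraries against 169 and 188 CPM in cello, a difference of -0.38 (SE 0.09, limma unadjusted p = 0.00918, adjusted p = 0.419). Esrra stood at 38.9 and 39.7 CPM against 33.6 and 34.2 CPM, a difference of -0.21 (SE 0.08, limma adjusted p = 0.452). In both genes the cello libraries lay below the wild-type libraries. Tfeb and Esrrg, named after their values were seen, stood at 34.7 and 39.0 CPM against 31.5 and 30.06 CPM, a difference of -0.25, and at 15 and 27.6 CPM against 31.7 and 39.8 CPM, a difference of 0.79. Esrrg was higher in both cello libraries, but the wild-type libraries differed widely. Beside them, hair cell markers summed to 525 and 524 CPM in wild-type libraries against 414 and 369 CPM in cello. All 8 hair cell genes were tested, and none was at 0 in every library. The groups did not overlap for 5 of the 8, all lower in cello, against 28.7% of all genes tested. Ocm among them stood at 116 and 107.5 CPM against 33.9 and 16.6 CPM. Otof, Myo7a and Myo6 overlapped between genotypes, with differences of 0.03, 0.04 and -0.06. Without cello replicate 1 all 8 hair cell genes lay below 0. The neuron and Schwann cell sums are given above. The part of cell makeup in the differences of the regulators was not tested.

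The promoters of nuclear members are known for binding sites of NRF1, ETS factors, YY1 and ESRRA. RefSeq windows of GRCm38.p6, 250 bases before to 50 bases after the start, were matched for 69 of the 85 nuclear members. Both strands were searched. The NRF1 motif was found in 17 of 69 (24.6%), against 7.17% of 17492 protein-coding genes and 10.8% of the 10800 tested genes with a window. The ETS motif CCGGAAG was found in 16 (23.2%, against 12.9% and 18.6%), the YY1 motif AAGATGGCG in 7 (10.1%, against 2.14% and 3.3%), and the ESRRA motif TNAAGGTCA in 3 (4.35%, against 1.19% and 0.935%). The 3 with the ESRRA letters were Atp5g3, Ndufb4 and Sdhd. In 35 members none of the motifs was found, and in 8 there were at least 2 kinds. A match is a description of letters and not a measured site.

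Stretches of 60 bases around the NRF1 motif, in capitals, are shown for 5 members described above, 5′ to 3′ on the strand of the gene, to show the letters that matched in genes of 4 complexes. In Ndufa8 and Atp5g3 the match is on the opposite strand, so the capitals are its reverse complement, and the central bases differ between genes as the motif allows.
Ndufa8, complex I, chr2:36049334-36049393, minus strand, motif 30 bases before the start: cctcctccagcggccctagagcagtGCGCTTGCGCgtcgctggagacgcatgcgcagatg
Sdha, complex II, chr13:74350304-74350363, minus strand, motif 98 bases before: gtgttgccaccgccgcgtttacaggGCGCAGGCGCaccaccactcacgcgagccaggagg
Sdhd, complex II, chr9:50603894-50603953, minus strand, motif 79 bases before: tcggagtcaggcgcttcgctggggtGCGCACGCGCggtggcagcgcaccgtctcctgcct
Cox6a1, complex IV, chr5:115349086-115349145, minus strand, motif 162 bases before: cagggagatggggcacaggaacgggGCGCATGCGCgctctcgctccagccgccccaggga
Atp5g3, complex V, chr2:73911280-73911339, minus strand, motif 12 bases after: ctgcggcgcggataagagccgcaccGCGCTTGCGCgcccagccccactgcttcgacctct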

How the data were processed

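RNA of 4 whole cochleae libraries, prepared with TruSeq per the labels, was measured as CPM per gene. The authors scaled the deposited CPM to all counted alignments, as the sums of the values show. The aligner was TopHat and the build GRCm38, per the submitters' processing notes. How reads were counted, with which strand setting and which annotation release, is not given in the sources used here. All values (100%) were whole multiples of 1 read (tolerance 0.001 of a read), and whole reads were recovered from them. The 5 entries that name no gene stayed out of tests. They held 9.54% to 12.5% of alignments outside genes, 13.03% to 14.6% not unique, 3.40% to 3.53% ambiguous and 0% in the 2 others.

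Symbols and positions came from GENCODE M21 for 36588 of 37239 identifiers, and lengths from principal transcripts. The 14721 genes that reached 1 CPM in 2 or more libraries were fitted by genotype as log2(CPM + 0.5) in limma 3.58.1 under R 4.3.3. The fit used a variance trend and two-sided tests, and p-values were adjusted by Benjamini-Hochberg over all genes with a threshold of 0.05. This scale understates differences of low genes. edgeR 4.0.16 and DESeq2 1.42.0 (1713 adjusted p undefined) were run on the recovered reads. All tests were tested on simulated data. Python 3.11.15, pandas 2.3.3 and matplotlib 3.10.9 made tables and plots.

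Members and lists were chosen with earlier results of these data known. Named were all mitochondrially encoded members, complex II, the tissue isoforms, per other complex the 3 nuclear members with the smallest unadjusted p and the highest per length, and up to 2 genes per pathway list. Members on chromosome 1, those with shared windows, Ucp1, Elovl3, Tfeb and Esrrg were named after their values were seen. In the counts 1 member was kept that is not reported here by itself. Ndufa4 and Ndufa4l2 were placed in complex IV. Alternatives were pseudocounts, filters, TMM, median-of-ratios and other rescaling, limma without the trend, both count tests, a block for the replicate number, and each library left out. CPM over the reads in genes was chosen after seeing the data.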

Additional observations from a re-analysis of the deposited data

How the results depend on the processing

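No member passed an adjusted p of 0.05 under any alternative run. The count of all genes called was 0 under each, except 195 in DESeq2 and 90 in limma without wild-type replicate 2 (range 0 to 90 over the libraries left out). The median log2 difference of nuclear members ranged from -0.17 to 0.02 over the libraries left out, being 0.0177 without cello replicate 1. That of mitochondrially encoded members ranged from -0.01 to 0.14, being 0.14 without cello replicate 1 and -0.0128 without cello replicate 2. The difference of the log2 ratio ranged from 0.11 to 0.23. With the replicate number as a block, 0 genes were called. In this balanced design a block cannot move a fitted difference, so its nuclear median of -0.08 says nothing about stability. Deviations of same-numbered libraries correlated at 0.13 over 14721 genes, with only 2 pairs, and the numbers were not taken as pairing. TMM, median-of-ratios, CPM without mitochondrially encoded and haemoglobin genes, edgeR, DESeq2 and CPM over the reads in genes turned mt-Nd4 above 0 (0.0159, 0.0141, 0.0068, 0.0159, 0.0141 and 0.0037) and likewise mt-Cytb (0.0123, 0.0105, 0.0032, 0.0123, 0.0106 and 0.0002), and edgeR turned Cox7a2 (0.0014). With single libraries left out, where limma takes the lone library to vary like the other genotype, 11 named genes changed sign: Sdhd ranged from -0.2376 to 0.0127, Sdhb from -0.1685 to 0.0605, Ndufb9 from -0.2558 to 0.0341 and Cox7a2 from -0.1881 to 0.0964, each above 0 only without cello replicate 1, mt-Co3 from -0.1506 to 0.3297, below 0 only without cello replicate 2, mt-Nd1 from -0.0524 to 0.121 and mt-Atp6 from -0.2233 to 0.3199, below 0 without cello replicate 2 (-0.113 for mt-Atp6) or wild-type replicate 1 (-0.0122 for mt-Nd1). Uqcrh ranged from -0.2111 to 0.1082, above 0 without wild-type replicate 1 (0.0310) or cello replicate 1. Cox6b2 ranged from -0.245 to 0.0087, above 0 only without wild-type replicate 1, Cox8b from -0.495 to 0.0459, above 0 without wild-type replicate 1 (0.0119) or cello replicate 2, and Cox6b1 from -0.0703 to 0.1086, below 0 without wild-type replicate 2 (-0.0426) or cello replicate 2. The cause was not tested. Of the other values recomputed for named genes, 541 kept their direction. The filters, limma without the trend and the block leave the fitted difference of a gene as it was. Part of that count was therefore fixed in advance and says nothing about stability. With 2 libraries per genotype the 95% intervals of the abundant mitochondrially encoded genes span changes of both signs. The values of 6 of the 13 mitochondrially encoded genes, mt-Co2 to mt-Nd4l, are not read as transcript levels.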
